A study of Mus musculus with 4 samples.

Results

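The genes described here encode the enzymes of the tricarboxylic acid (TCA) cycle and the steps by which pyruvate and glutamine carbon enter it. They are 30 genes listed by symbol for their function, of 23284 gene symbols in the expression tables, and no threshold on measured values entered the choice. Each had a single entry in the tables. The libraries were made from CD4 T cells of the spleen of BALB/c mice, which are inbred. The cells had been through Th1 culture with interleukin-2 at 15 ng/ml and interleukin-12, a cytokine that drives interferon-gamma producing helper cells, at 10 ng/ml. The length of culture is given as 4 days in one label and 5 days in another. Cells were sorted by flow cytometry into a CCR7loCD137hi population (2 libraries), with little of the lymph node homing receptor CCR7 and much of the activation receptor CD137, and a CCR7hiCD137lo population (2 libraries) with the opposite surface pattern. The labels name no genetic change and no further treatment, and neither population is an untreated control. The labels do not say whether libraries 1 and 2 of a population came from separate mice or cultures, so p-values here rest on a spread that may be technical. In bulk RNA, fewer cells of a type and less RNA per cell cannot be told apart.

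The TCA cycle oxidises acetyl-CoA in the mitochondrial matrix and passes its electrons to the respiratory chain. Pyruvate enters through the pyruvate dehydrogenase complex as acetyl-CoA or through pyruvate carboxylase as oxaloacetate, and glutamine enters as glutamate, which dehydrogenases and transaminases turn into 2-oxoglutarate. Activated T cells use the cycle both for energy and as a source of building blocks, among them the citrate that leaves mitochondria to supply acetyl-CoA for fatty acid synthesis. The series is concerned with that synthesis in CD4 T cells, and the comparison asks how the sorted populations differ in the genes upstream of it.

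Approximate depth, estimated from the steps between low values, was 11500000 and 6240000 fragments in CCR7loCD137hi replicates 1 and 2, and 20400000 and 12800000 in CCR7hiCD137lo replicates 1 and 2. For a 1 kb transcript, 3 fragments correspond to 0.261 and 0.481 FPKM in CCR7loCD137hi, and to 0.147 and 0.234 FPKM in CCR7hiCD137lo. FPKM, the number of fragments scaled by transcript length and by library depth, is a level per length and so can be set side by side between genes. Ccr7 stood at 39.6 and 38.2 FPKM in CCR7loCD137hi, against 93.4 and 118.4 FPKM in CCR7hiCD137lo, and Tnfrsf9, which encodes CD137, at 158.2 and 183.8 FPKM in CCR7loCD137hi, against 0.961 and 6.25 FPKM in CCR7hiCD137lo, so all libraries followed their labels. Neither sort marker was called by limma, with adjusted p = 0.213 for Ccr7 and 0.214 for Tnfrsf9, so the lack of a call here does not show equal levels. The 5 pan T cell markers summed to 892.3 and 1068.1 FPKM in CCR7loCD137hi and to 990.9 and 1023.0 FPKM in CCR7hiCD137lo. Cd4 stood at 95.6 and 175.7 FPKM in CCR7loCD137hi and at 124.5 and 181.9 FPKM in CCR7hiCD137lo, replicate 2 being higher in each population. The 4 B cell markers summed to 4.44 and 0.529 FPKM in CCR7loCD137hi and to 0.0917 and 0.145 FPKM in CCR7hiCD137lo. Among these, Ms4a1 was listed at 0 in both CCR7hiCD137lo libraries. The 3 NK cell markers summed to 3.75 and 1.27 FPKM in CCR7loCD137hi, and all 3 were listed at 0 in both CCR7hiCD137lo libraries. CD8 markers summed to 12.2 and 3.99 FPKM in CCR7loCD137hi and to 2.63 and 4.58 FPKM in CCR7hiCD137lo. The 5 myeloid and dendritic markers summed to at most 0.467 FPKM in any library, with Csf1r listed at 0 in all 4, and the 4 erythroid and platelet markers to 0.776 and 1.56 FPKM in CCR7loCD137hi, with all 4 listed at 0 in CCR7hiCD137lo. The part of these other cells in the results below was not tested.

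Fitted differences between the populations were small for most of the 30 genes, and widest for Gpt2 and Pcx, which act at entry points. The next widest, those of Got1, Pdha1, Idh3g and Glud1, lay at entry points and, for Idh3g, in the cycle itself. All 30 genes had a mean of at least 1 FPKM and were tested, among 10496 genes in all, with limma on log2(FPKM + 1). None of the 30 was called at a Benjamini-Hochberg adjusted p under 0.05 by limma, where 0.0572% of all genes tested were called (0.0476% higher and 0.00953% lower in CCR7loCD137hi). Before adjustment, 1 of the 30, Gpt2, had a p under 0.05, against 8.13% of all genes tested. The fitted log2 fold change, CCR7loCD137hi minus CCR7hiCD137lo, was above 0 for 20 of the 30, against 47.9% of all genes, with a median of 0.057 against −0.012 over all genes. Without CCR7loCD137hi replicate 1 the median of the 30 was −0.011 and 14 were fitted above 0. It lay within 0.3 of 0 for 28 of the 30, against 75.6% of all genes, the exceptions being Gpt2 and Pcx. With a pseudocount of 0.1, Pdk2 also lay outside, at 0.41 against 0.21 with a pseudocount of 1, and with median ratio scaling Got1 did, at 0.304. The median standard error of a single gene was 0.145 among the 30 and 0.18 over all genes tested, so most of these differences were smaller than the error of the fit.

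**Figure D1:**
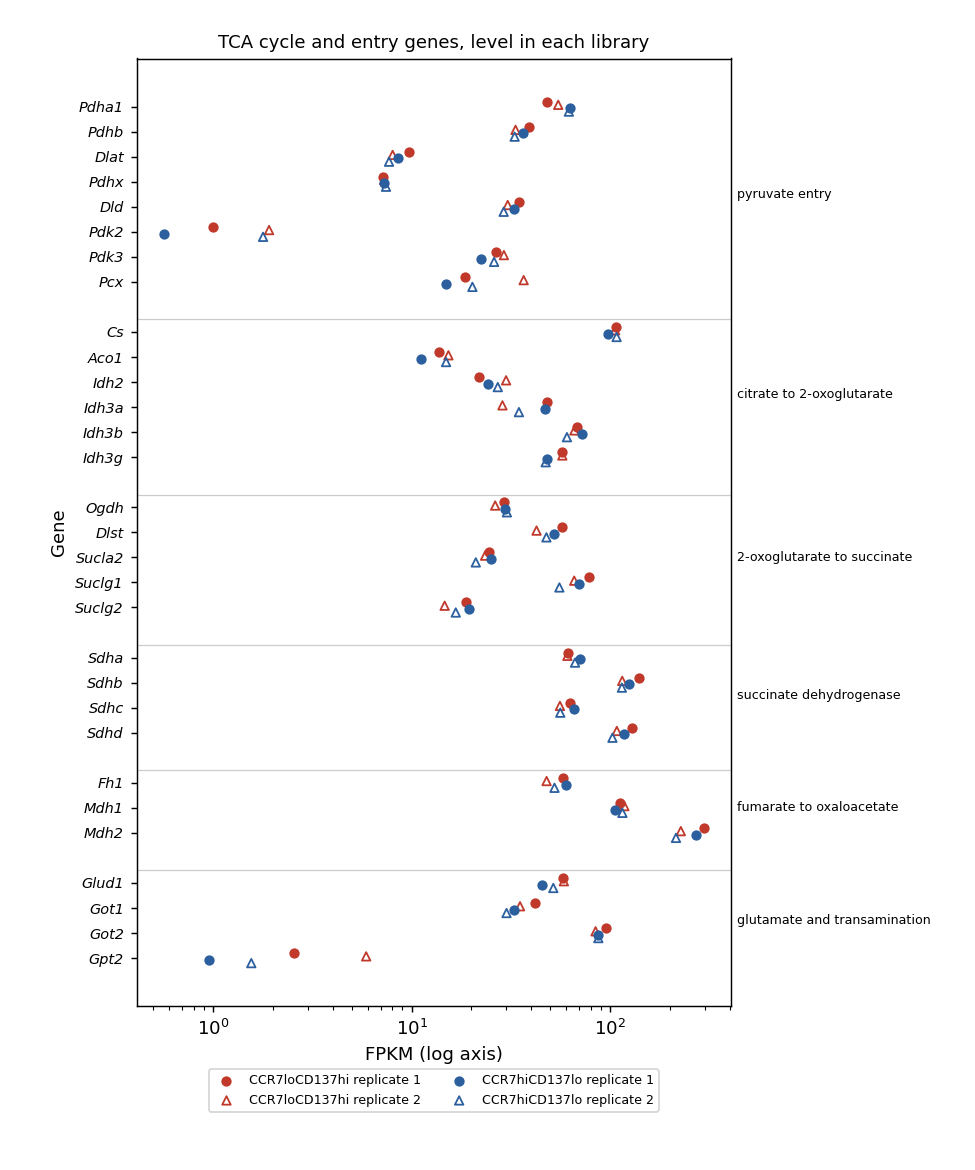
Level of each of the 30 genes in every library (x axis, FPKM on a log axis; y axis, genes grouped by step). Red marks are CCR7loCD137hi and blue marks CCR7hiCD137lo, filled circles replicate 1 and open triangles replicate 2. Levels span from Pdk2 at 0.563 FPKM to Mdh2 at 298 FPKM, and marks of one gene lie close together except for Gpt2, Pcx and Pdk2.

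In 5 of the 30 genes the lower CCR7loCD137hi library still exceeded the higher CCR7hiCD137lo library (Glud1, Got1, Gpt2, Idh3g and Pdk3), where 16.6% of all genes tested did so. The reverse held for 3 (Ogdh, Pdha1 and Sdha), and for 21.5% of all genes tested. These counts are near or under the share over all genes and set the 30 genes apart in neither direction. For Pdk3 and Ogdh the nearest libraries of the populations differed by less than the error of counting fragments. With 2 libraries a group, the smallest two-sided p of an exact permutation test of a single gene is 0.333.

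**Figure D2:**
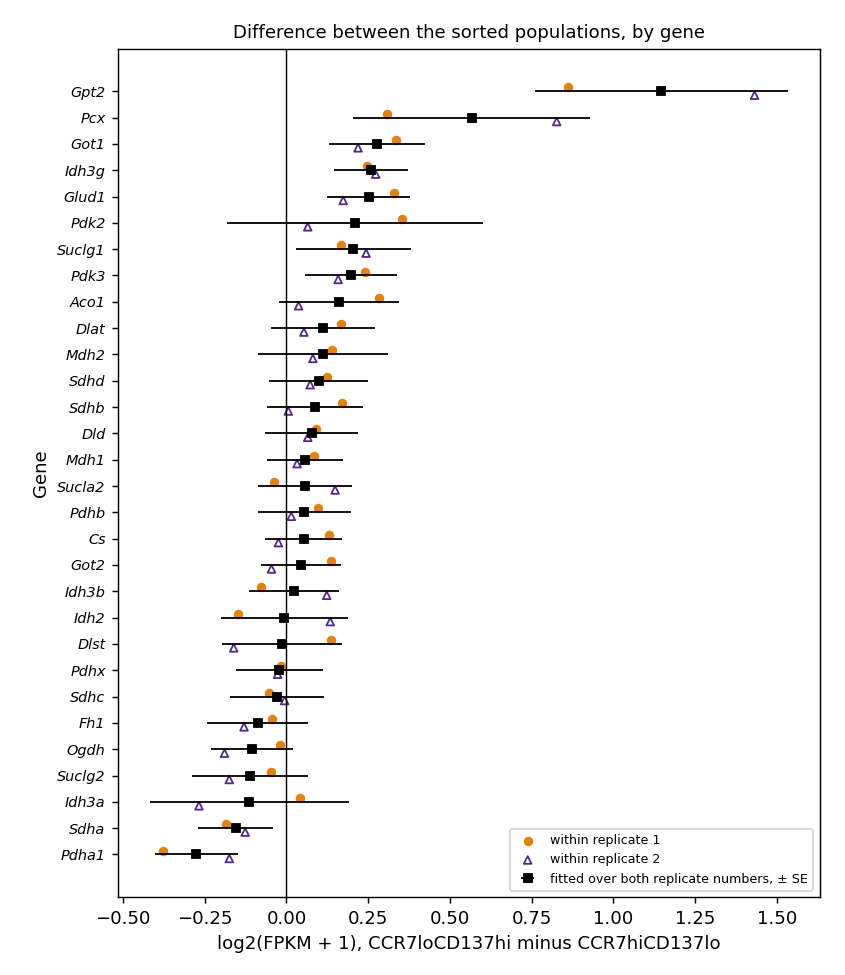
Difference in log2(FPKM + 1), CCR7loCD137hi minus CCR7hiCD137lo (x axis), for each gene (y axis, ordered by the fitted value). Black squares with bars are the limma fit ± SE over 4 libraries, orange circles the difference within replicate 1, and open violet triangles the difference within replicate 2. Gpt2 at 1.15 and Pcx at 0.57 stand at the top, and the other 28 genes lie within 0.3 of 0.

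Among the steps by which the genes were grouped, glutamate and transamination had the highest median log2 fold change. Glutamate is turned into 2-oxoglutarate by Glud1, glutamate dehydrogenase, or by transaminases that pass its amino group to oxaloacetate (Got1 in the cytosol and Got2 in mitochondria) or to pyruvate (Gpt2, the mitochondrial alanine aminotransferase). All 4 genes were fitted above 0, none was called, and the median log2 fold change was 0.26. The direction depends on which genes were grouped here. Gpt, another alanine aminotransferase gene, was placed in the glutamine supply list and is named after its values were seen. It stood at 3.05 and 4.08 FPKM in CCR7loCD137hi and at 3.47 and 4.51 FPKM in CCR7hiCD137lo. Its log2 fold change was −0.13, and it was lower in CCR7loCD137hi within each replicate number.

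Gpt2 lies on chromosome 8 of mm10, from 85492617 to 85527558. It stood at 2.55 and 5.91 FPKM in CCR7loCD137hi, against 0.955 and 1.56 FPKM in CCR7hiCD137lo. Both CCR7loCD137hi libraries were above both CCR7hiCD137lo libraries, and replicate 2 was the higher library in each population. It averaged 4.23 ± 2.37 FPKM in CCR7loCD137hi and 1.26 ± 0.427 FPKM in CCR7hiCD137lo (SD, n = 2 each), a ratio of 3.36. The log2 fold change was 1.15 (SE 0.387, adjusted p = 0.588 by limma), with 0.86 within replicate 1 and 1.43 within replicate 2. Gpt2 was 1 of the 2 least expressed of the 30 genes, and about 107 and 134 fragments in CCR7loCD137hi and 71 and 73 in CCR7hiCD137lo lay behind these values. The counting error was thus about 8.64% to 11.9% of the level, smaller than the difference between replicates of CCR7loCD137hi. Without CCR7loCD137hi replicate 2 the log2 fold change of Gpt2 was 0.67, and without CCR7loCD137hi replicate 1 it was 1.63.

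Glud1 stood at 57.6 and 58.5 FPKM in CCR7loCD137hi, against 45.6 and 51.7 FPKM in CCR7hiCD137lo. Got1 stood at 41.7 and 35.2 FPKM in CCR7loCD137hi, against 32.9 and 30.1 FPKM in CCR7hiCD137lo. For both genes the populations did not overlap, with log2 fold changes of 0.25 (SE 0.127, adjusted p = 0.712 by limma) and 0.28 (SE 0.146, adjusted p = 0.718 by limma). Got2, the mitochondrial partner of Got1 in the malate-aspartate shuttle, stood at 95.0 and 84.4 FPKM in CCR7loCD137hi and at 86.4 and 87.2 FPKM in CCR7hiCD137lo. Its libraries overlapped between the populations. A gene on the opposite strand, Gm45760, shares 434 exonic bases with Got2 in GENCODE, and since the use of strand in counting is not stated, reads of the pair cannot be told apart. The ratio of Got1 to Got2 within a library was 0.439 and 0.416 in CCR7loCD137hi, against 0.381 and 0.345 in CCR7hiCD137lo.

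Pyruvate carboxylase, encoded by Pcx, adds a carboxyl group to pyruvate and so refills oxaloacetate. Pcx lies on chromosome 19 of mm10, from 4510472 to 4621752. It stood at 18.6 and 36.7 FPKM in CCR7loCD137hi, against 14.9 and 20.2 FPKM in CCR7hiCD137lo. The populations overlapped, since CCR7loCD137hi replicate 1 lay below CCR7hiCD137lo replicate 2, but within each replicate number CCR7loCD137hi was the higher. It averaged 27.7 ± 12.8 FPKM in CCR7loCD137hi and 17.6 ± 3.81 FPKM in CCR7hiCD137lo (SD, n = 2 each), and its log2 fold change was 0.57 (SE 0.362, adjusted p = 0.758 by limma). The difference rested largely on CCR7loCD137hi replicate 2. It was 0.31 within replicate 1 and 0.83 within replicate 2, 0.10 without CCR7loCD137hi replicate 2 and 1.04 without CCR7loCD137hi replicate 1.

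The promoter windows of Gpt2 and Pcx are shown because these genes had the widest fitted differences. Sequences are from RefSeq on GRCm38.p6, from 250 bases before to 50 after the start site, on the coding strand. Pcx has 2 windows, and the expression tables give 1 value for the whole gene. Capitals mark matches to the motifs searched.
Gpt2, chr8:85492326-85492625, plus strand: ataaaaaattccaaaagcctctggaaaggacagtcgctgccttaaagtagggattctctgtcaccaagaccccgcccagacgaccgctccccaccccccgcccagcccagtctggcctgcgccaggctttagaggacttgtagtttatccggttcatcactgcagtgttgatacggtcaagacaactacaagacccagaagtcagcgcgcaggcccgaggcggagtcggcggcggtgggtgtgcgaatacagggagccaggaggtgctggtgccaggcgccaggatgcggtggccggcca
Pcx, first start, chr19:4510222-4510521, plus strand: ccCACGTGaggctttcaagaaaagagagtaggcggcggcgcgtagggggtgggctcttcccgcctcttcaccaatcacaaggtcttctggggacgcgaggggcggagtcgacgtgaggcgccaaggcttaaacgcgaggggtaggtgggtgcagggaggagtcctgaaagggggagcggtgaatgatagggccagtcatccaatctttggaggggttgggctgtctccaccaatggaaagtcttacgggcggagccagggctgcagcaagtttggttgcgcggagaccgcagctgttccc
Pcx, second start, chr19:4594069-4594368, plus strand: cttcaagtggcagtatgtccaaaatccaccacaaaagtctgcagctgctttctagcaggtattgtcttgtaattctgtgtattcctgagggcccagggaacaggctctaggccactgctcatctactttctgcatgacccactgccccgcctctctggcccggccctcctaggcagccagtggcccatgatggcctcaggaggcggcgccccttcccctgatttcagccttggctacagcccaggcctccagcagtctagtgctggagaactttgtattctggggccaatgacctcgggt

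RefSeq windows matched 28 of the 30 genes, with 35 windows in all, since Ogdh, Pcx and Pdk2 have several starts and some of the Ogdh windows overlap. The median share of G and C was 61.0% in these windows and 52.7% in all 32851 windows of the table, and the median number of CG pairs was 21 against 7. The 5 motifs were chosen after the expression values were seen and searched on both strands. The nuclear respiratory factor 1 motif was first searched with 1 more letter at its 3′ end and shortened after that result was seen, for reasons of format. The longer form matched fewer windows, both among these genes and in the whole table. The letters TGATGNAA, the composite element of ATF4 and C/EBP factors, were found in 2.86% of the 35 windows (Got1 alone) and in 3.97% of all windows. The MYC type E-box, CACGTG, was found in 5 of the 35 windows (14.3%, in Ogdh, Pcx and Pdk2) and in 7.15% of all windows. In Pcx it lies 248 bases before the first start. The sterol response element letters TCACNCCAC were found in 0 of the 35 windows and in 1.24% of all windows, and TCAAGGTCA, the estrogen-related receptor element, in Sdhd alone and in 0.423% of all windows. GCGCANGCG, the core of the nuclear respiratory factor 1 site, was found in 6 of the 35 windows (17.1%, in Dld, Ogdh, Sdha, Sdhd and Sucla2) and in 6.25% of all windows. Overlapping Ogdh windows share a site of this motif and one of the E-box, so these counts are of windows and not of sites. Gpt2 and the second Pcx window held none of these letters. A match is only a description of the sequence.

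The pyruvate dehydrogenase complex converts pyruvate to acetyl-CoA. Its first enzyme has an alpha subunit, Pdha1, and a beta subunit, Pdhb. Pdha1, on chromosome X of mm10 from 160122219 to 160138336, had the lowest fitted fold change of the 30 genes. It stood at 48.1 and 54.8 FPKM in CCR7loCD137hi, against 62.7 and 61.9 FPKM in CCR7hiCD137lo, with no overlap. The log2 fold change was −0.28 (SE 0.127, adjusted p = 0.684 by limma), with −0.38 within replicate 1 and −0.17 within replicate 2. Pdha1 shares 603 exonic bases with Map3k15 on the opposite strand in GENCODE, and Map3k15 was at 0.426 and 0.203 FPKM in CCR7loCD137hi and at 0.0886 and 0.298 FPKM in CCR7hiCD137lo.

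Pdhb stood at 38.9 and 33.4 FPKM in CCR7loCD137hi and at 36.3 and 33.0 FPKM in CCR7hiCD137lo. These libraries overlapped, and the ratio of Pdha1 to Pdhb within a library was 1.24 and 1.64 in CCR7loCD137hi, against 1.73 and 1.88 in CCR7hiCD137lo. Dlat, the acetyltransferase core, was at 8.85 ± 1.17 against 8.10 ± 0.567 FPKM, Pdhx, the component that binds dihydrolipoamide dehydrogenase to the core, at 7.22 ± 0.0809 against 7.34 ± 0.129 FPKM, and Dld, the dehydrogenase shared with the 2-oxoglutarate dehydrogenase complex, at 32.7 ± 3.15 against 30.9 ± 2.61 FPKM (CCR7loCD137hi against CCR7hiCD137lo, SD, n = 2 each). These 3 genes overlapped between the populations. The transcripts of the acetyltransferase and of the binding component were thus the least abundant of the structural subunits in all 4 libraries.

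Pyruvate dehydrogenase kinases phosphorylate the alpha subunit and switch the complex off. Pdk3 stood at 26.7 and 29.2 FPKM in CCR7loCD137hi, against 22.5 and 26.0 FPKM in CCR7hiCD137lo, with no overlap and a log2 fold change of 0.20 (SE 0.141, adjusted p = 0.771 by limma). The gap between 26.7 and 26.0 FPKM was smaller than the counting error, about 3.93% and 3.76% of the level in these libraries. Pdk2 stood at 0.998 and 1.92 FPKM in CCR7loCD137hi and at 0.563 and 1.79 FPKM in CCR7hiCD137lo, the lowest mean of the 30 genes. Its order followed the replicate number, replicate 2 being higher in each population, and about 26 to 52 fragments lay behind each value. Pdk3 was thus the more abundant of this pair per length, by 26.8-fold and 15.2-fold in CCR7loCD137hi and by 39.9-fold and 14.6-fold in CCR7hiCD137lo.

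From oxaloacetate and acetyl-CoA, citrate synthase (Cs) makes citrate, which aconitase and isocitrate dehydrogenases turn into 2-oxoglutarate. Cs stood at 107 and 106 FPKM in CCR7loCD137hi and at 98.0 and 108 FPKM in CCR7hiCD137lo, a log2 fold change of 0.05 (SE 0.117). Aco1, the cytosolic aconitase that also acts as an iron regulatory protein, was at 13.8 and 15.3 FPKM in CCR7loCD137hi and at 11.2 and 14.9 FPKM in CCR7hiCD137lo. Both genes overlapped between the populations. Idh2, the mitochondrial isocitrate dehydrogenase that makes NADPH, was at 21.8 and 29.9 FPKM in CCR7loCD137hi and at 24.2 and 27.2 FPKM in CCR7hiCD137lo, a log2 fold change of −0.01 (SE 0.195) whose sign turned with quantile normalization and median ratio scaling.

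The NAD-linked isocitrate dehydrogenase of the cycle is built from alpha, beta and gamma subunits (Idh3a, Idh3b and Idh3g). Idh3g lies on chromosome X of mm10, from 73778963 to 73786897. It stood at 57.4 and 57.4 FPKM in CCR7loCD137hi, against 48.3 and 47.4 FPKM in CCR7hiCD137lo. This regulatory subunit averaged 57.4 ± 0.00537 FPKM in CCR7loCD137hi and 47.8 ± 0.665 FPKM in CCR7hiCD137lo (SD, n = 2 each), with no overlap. The counting error was about 2.7% and 3.66% of the level in CCR7loCD137hi and 2.21% and 2.81% in CCR7hiCD137lo. These SDs are smaller than that error, so they do not measure the spread of a population. Idh3g had a log2 fold change of 0.26 (SE 0.112, adjusted p = 0.656 by limma), with 0.25 within replicate 1 and 0.27 within replicate 2. Idh3a, the catalytic subunit, stood at 48.4 and 28.7 FPKM in CCR7loCD137hi and at 47.0 and 34.7 FPKM in CCR7hiCD137lo. Its 2 lower libraries were those numbered 2, and its difference changed sign between the replicate numbers, 0.04 and −0.27. Idh3b was at 68.2 and 66.1 FPKM in CCR7loCD137hi and at 72.0 and 60.6 FPKM in CCR7hiCD137lo, and it shares 5 exonic bases with Nop56 on the opposite strand. The ratio of Idh3g to Idh3b was 0.842 and 0.869 in CCR7loCD137hi, against 0.671 and 0.782 in CCR7hiCD137lo, with no overlap. The ratios that involve Idh3a overlapped, with Idh3a to Idh3b at 0.709 and 0.434 in CCR7loCD137hi and at 0.652 and 0.573 in CCR7hiCD137lo, and Idh3g to Idh3a at 1.19 and 2.002 in CCR7loCD137hi and at 1.03 and 1.36 in CCR7hiCD137lo.

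The 2-oxoglutarate dehydrogenase complex (Ogdh, with its succinyltransferase Dlst and the shared Dld) makes succinyl-CoA, which succinyl-CoA ligase splits to succinate. Ogdh stood at 29.1 and 26.4 FPKM in CCR7loCD137hi, against 29.5 and 30.2 FPKM in CCR7hiCD137lo, with no overlap and a log2 fold change of −0.10 (SE 0.125, adjusted p = 0.866 by limma). The gap between 29.1 and 29.5 FPKM was smaller than the counting error, about 2.69% and 2.01% of the level in these libraries. Dlst stood at 57.4 and 42.6 FPKM in CCR7loCD137hi and at 52.1 and 47.8 FPKM in CCR7hiCD137lo. The CCR7hiCD137lo libraries of Dlst lay between those of CCR7loCD137hi. Succinyl-CoA ligase pairs the common subunit Suclg1 with a beta subunit that makes either ATP (Sucla2) or GTP (Suclg2). Suclg1 stood at 78.5 and 65.9 FPKM in CCR7loCD137hi, against 69.8 and 55.5 FPKM in CCR7hiCD137lo, higher within each replicate number but overlapping across them (log2 fold change 0.20, SE 0.175, adjusted p = 0.808 by limma). Sucla2 was at 24.5 and 23.5 FPKM in CCR7loCD137hi and at 25.1 and 21.1 FPKM in CCR7hiCD137lo, and Suclg2 at 18.8 and 14.7 FPKM in CCR7loCD137hi and at 19.5 and 16.7 FPKM in CCR7hiCD137lo. In all 4 libraries the ATP-forming subunit's transcript was the more abundant of the alternative beta subunits. The ratio of Suclg1 to Suclg2 was 4.18 and 4.49 in CCR7loCD137hi, against 3.59 and 3.33 in CCR7hiCD137lo, and that of Sucla2 to Suclg2 was 1.3 and 1.6 in CCR7loCD137hi, against 1.29 and 1.26 in CCR7hiCD137lo.

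Succinate dehydrogenase is both a cycle enzyme and complex II of the respiratory chain, with a flavoprotein (Sdha), an iron-sulfur subunit (Sdhb) and the membrane anchors Sdhc and Sdhd. Sdha stood at 61.6 and 60.9 FPKM in CCR7loCD137hi, against 70.2 and 66.6 FPKM in CCR7hiCD137lo, with no overlap and a log2 fold change of −0.16 (SE 0.114, adjusted p = 0.773 by limma). Sdhb stood at 140.0 and 115 FPKM in CCR7loCD137hi and at 124 and 115 FPKM in CCR7hiCD137lo. Sdhc was at 62.9 and 55.9 FPKM in CCR7loCD137hi and at 65.4 and 56.1 FPKM in CCR7hiCD137lo. The last subunit, Sdhd, was at 128 and 108 FPKM in CCR7loCD137hi and at 118 and 103 FPKM in CCR7hiCD137lo. These 3 subunits overlapped between the populations. The ratio of Sdha to Sdhb was 0.440 and 0.529 in CCR7loCD137hi, against 0.564 and 0.581 in CCR7hiCD137lo, and that of Sdhc to Sdhd was 0.490 and 0.517 in CCR7loCD137hi, against 0.555 and 0.546 in CCR7hiCD137lo.

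The Sdha window is shown because it holds 3 matches to GCGCANGCG, the most of any of the 35 windows, marked in capitals and starting 98, 55 and 10 bases before the start site.
Sdha, chr13:74350191-74350490, minus strand: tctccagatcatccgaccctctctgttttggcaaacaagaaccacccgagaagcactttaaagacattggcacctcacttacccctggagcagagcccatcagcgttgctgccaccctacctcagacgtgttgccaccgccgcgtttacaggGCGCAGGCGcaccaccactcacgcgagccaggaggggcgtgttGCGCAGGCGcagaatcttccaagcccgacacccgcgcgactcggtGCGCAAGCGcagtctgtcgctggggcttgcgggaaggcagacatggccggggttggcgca

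**Figure D3:**
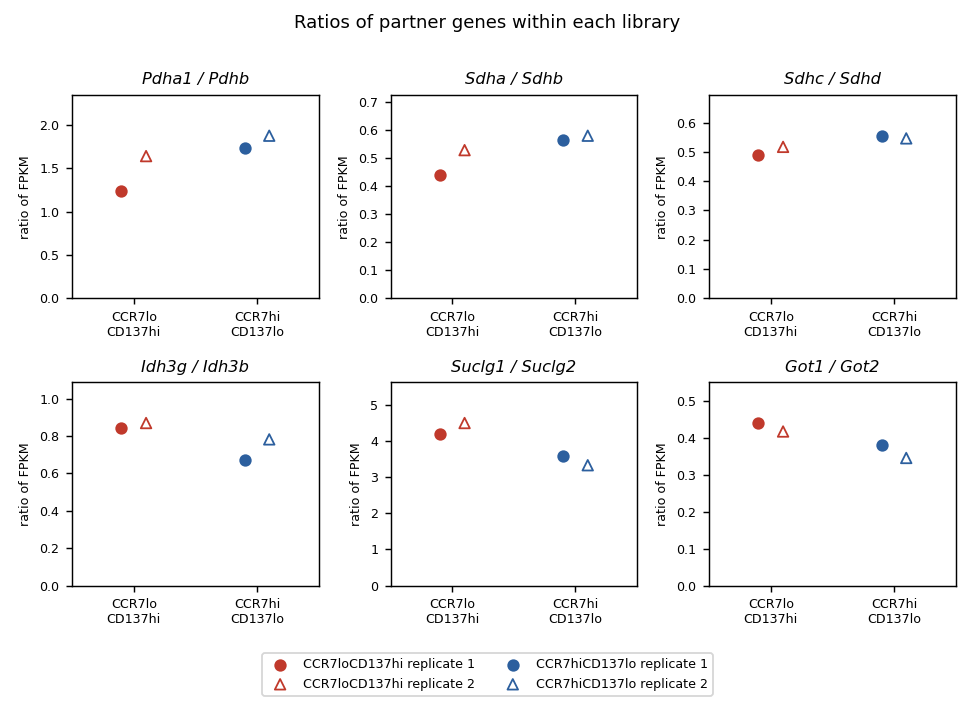
Ratio of FPKM between partner genes in each library (y axis, from 0), for 6 pairs of subunits or isozymes. Red marks on the left are CCR7loCD137hi and blue marks on the right CCR7hiCD137lo, circles replicate 1 and triangles replicate 2. In each of these 6 pairs, chosen after the values were seen, the populations do not overlap, and Pdha1 to Pdhb runs from 1.24 to 1.64 in CCR7loCD137hi against 1.73 to 1.88 in CCR7hiCD137lo.

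A ratio within a library does not depend on how libraries were scaled. Of 15 pairs computed, 9 did not overlap between the populations and 6 overlapped (Idh3a to Idh3b, Idh3g to Idh3a, Idh2 to Idh3a, Mdh1 to Mdh2, Pcx to Pdhb and Pdk3 to Pdk2). How often other gene pairs do not overlap was not computed, and some genes enter several pairs, so the count of 9 cannot be weighed. Some of the 9 were separated only narrowly. The nearest ratios, CCR7loCD137hi against CCR7hiCD137lo, were 1.303 against 1.292 for Sucla2 to Suclg2, and 0.240 against 0.234 for Dlat to Pdhb. These gaps are smaller than the counting error of Sucla2 and of Dlat. The pairs plotted were picked from the 9 after their values were seen, so they carry no test.

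Fumarate is hydrated to malate by Fh1, fumarase, and malate is oxidised to oxaloacetate by Mdh2 in mitochondria, while Mdh1 is the cytosolic enzyme. Mdh2 was the most abundant of the 30 transcripts, at 298 and 227 FPKM in CCR7loCD137hi and at 270.0 and 215 FPKM in CCR7hiCD137lo. Replicate 1 was the higher in each population, and the log2 fold change of 0.11 was smaller than its SE of 0.199. Mdh1 stood at 113 and 118 FPKM in CCR7loCD137hi and at 106 and 115 FPKM in CCR7hiCD137lo. It shares 52 exonic bases with Wdpcp on the opposite strand. Fh1 stood at 57.8 and 47.9 FPKM in CCR7loCD137hi and at 59.7 and 52.5 FPKM in CCR7hiCD137lo. All 3 genes overlapped between the populations.

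The 30 genes together summed to 1768 and 1595 FPKM in CCR7loCD137hi and to 1662 and 1544 FPKM in CCR7hiCD137lo. Of the FPKM summed with 1 entry kept per symbol, this is 0.376% and 0.332% in CCR7loCD137hi and 0.364% and 0.327% in CCR7hiCD137lo. The sums followed the replicate number more closely than the population. For 22 of the 30 genes the mean difference between replicates 2 and 1 was larger in size than the mean difference between the populations, where this held for 56.1% of all genes tested. The median size was 0.184 for the replicate numbers and 0.107 for the populations among the 30, and 0.198 and 0.163 over all genes tested, on the log2(FPKM + 1) scale.

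Transcripts of the cycle were mostly lower in the libraries numbered 2. In both populations 17 of the 30 genes were lower in replicate 2 than in replicate 1, against 29.4% of all genes tested, and 9 were higher, against 44.7%. The lower genes included all 4 subunits of succinate dehydrogenase, the 3 subunits of succinyl-CoA ligase and the 3 of NAD-linked isocitrate dehydrogenase, though Sdha and Idh3g differed by at most 0.08 in either population. Averaged over both populations, their widest differences were those of Idh3a, at −0.73 in CCR7loCD137hi and −0.42 in CCR7hiCD137lo, and of Mdh2, at −0.39 in CCR7loCD137hi and −0.33 in CCR7hiCD137lo. The higher genes were Pcx, at 0.94 in CCR7loCD137hi and 0.42 in CCR7hiCD137lo, Gpt2, at 0.96 in CCR7loCD137hi and 0.39 in CCR7hiCD137lo, and Pdk2, at 0.55 in CCR7loCD137hi and 0.83 in CCR7hiCD137lo, with Aco1, Glud1, Idh2, Mdh1, Pdhx and Pdk3. Across the 30 genes, which are not independent replicates, Pearson's r between the replicate difference in CCR7loCD137hi and that in CCR7hiCD137lo was 0.814, and over all genes tested it was 0.214. The 2 differences share no library. A mean of at least 5 FPKM was reached by 28 of the 30 genes and by 7882 of the 10496 tested, so the sets differ in level. Pcx, Gpt2, Pdk2 and Idh3a lay at the extremes, and r was not computed without them. What the replicate number stands for is not given in the labels, and depth and the level of Cd4 move with it, replicate 2 being the shallower library and the one with more Cd4 in each population. Their part was not tested.

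**Figure D4:**
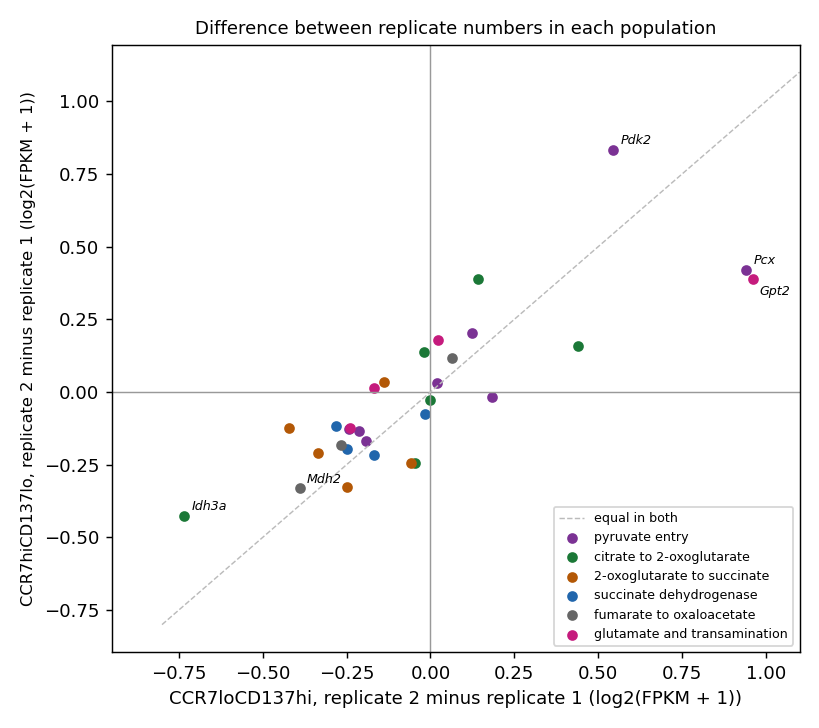
Difference between replicate 2 and replicate 1, in log2(FPKM + 1), within CCR7loCD137hi (x axis) and within CCR7hiCD137lo (y axis), for the 30 genes coloured by step; the dashed line marks equal differences. Most points lie in the lower left, 17 of 30 being below 0 in both populations, with Idh3a lowest and Gpt2, Pcx and Pdk2 at the upper right.

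Within a replicate number, 16 of the 30 genes were higher in CCR7loCD137hi in both numbers, against 33% of all genes tested, and 7 were lower in both, against 35.9%. The 7 were Fh1, Ogdh, Pdha1, Pdhx, Sdha, Sdhc and Suclg2. The median difference among the 30 was 0.127 within replicate 1 and 0.045 within replicate 2, and over all genes 0.013 and −0.036. By step, the median log2 fold change ran from −0.01 for the steps from 2-oxoglutarate to succinate (2 of 5 genes fitted above 0), through 0.03 for succinate dehydrogenase (2 of 4), 0.04 for citrate to 2-oxoglutarate (4 of 6), 0.06 for fumarate to oxaloacetate (2 of 3) and 0.09 for pyruvate entry (6 of 8), to 0.26 for glutamate and transamination (4 of 4).

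Other genes of the pathway were taken from 5 lists with 36 genes, of which 31 passed the minimum of 1 FPKM. None of the 31 was called by limma over all genes (0 at an unadjusted p under 0.05), and 14 were fitted above 0, with a median log2 fold change of −0.03. Pdk4, a further pyruvate dehydrogenase kinase gene, and Me3, a malic enzyme gene, were listed at 0 in all 4 libraries. In pyruvate import and control of pyruvate dehydrogenase, 2 of 6 genes were fitted above 0. Mpc2, a mitochondrial pyruvate carrier subunit, was at 28.1 ± 0.909 against 28.8 ± 0.130 FPKM, and Pdk1 at 24.7 ± 9.97 against 22.3 ± 3.59 FPKM (CCR7loCD137hi against CCR7hiCD137lo, SD, n = 2 each, here and for the genes that follow). In glutamine supply, 3 of 7 were fitted above 0. The plasma membrane glutamine carriers Slc1a5 and Slc38a2 were at 65.9 ± 5.49 against 52.3 ± 1.13 FPKM and at 45.0 ± 2.67 against 38.7 ± 0.728 FPKM.

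Among isozymes and enzymes that draw on the cycle, 5 of the 8 listed genes were tested. All 5 had fitted values above 0, against 47.9% of all genes tested, and their median was 0.33. Ogdhl, named after its values were seen, fell below the minimum for testing and went the other way. It stood at 0.660 and 0.292 FPKM in CCR7loCD137hi, against 1.16 and 1.04 FPKM in CCR7hiCD137lo. Acly, which splits cytosolic citrate to acetyl-CoA, was at 132 ± 30.3 against 121 ± 36.3 FPKM. In mitochondrial carriers, 2 of 6 were fitted above 0. The citrate carrier gene Slc25a1 was at 54.3 ± 18.3 against 45.8 ± 19.2 FPKM, and the 2-oxoglutarate carrier gene Slc25a11 at 47.1 ± 4.20 against 46.0 ± 7.14 FPKM. In succinate dehydrogenase assembly and lipoic acid attachment, 2 of 7 were fitted above 0, with Sdhaf1, an assembly factor, at 14.5 ± 1.22 against 14.9 ± 2.75 FPKM and Lias, lipoic acid synthase, at 14.6 ± 4.57 against 14.7 ± 1.20 FPKM. Chosen after their values were seen, Gls2, a mitochondrial glutaminase, stood at 3.83 and 6.43 FPKM in CCR7loCD137hi, against 1.20 and 3.02 FPKM in CCR7hiCD137lo (adjusted p = 0.619 by limma), and Pck2, the mitochondrial enzyme that turns oxaloacetate into phosphoenolpyruvate, at 6.81 and 18.9 FPKM in CCR7loCD137hi, against 3.40 and 8.78 FPKM in CCR7hiCD137lo (adjusted p = 0.760 by limma). Gls2 did not overlap between the populations and Pck2 did, and both were higher in replicate 2 in each population.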

How the data were processed

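RNA was measured in 4 libraries, 2 of CCR7loCD137hi and 2 of CCR7hiCD137lo cells. TRIzol extraction and a TruSeq Stranded mRNA kit were used, per the labels' protocols. The authors deposited FPKM values, 1 table of 23746 entries per library, and per the file headers its columns are those of Cufflinks. The submitters' processing notes name Cufflinks 2.0.2, TopHat 1.3.2, Bowtie 0.12.8 and mm10 without their roles. Annotation, filters, scaling between libraries and use of strand are not stated there.

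Printed gene starts are the deposited starts raised by 1, since 11547 then equalled the RefSeq start and 694 did so unraised. Where a symbol repeated, its entry of highest mean FPKM was taken. Genes with a mean of at least 1 FPKM were fitted on log2(FPKM + 1), a scale that understates changes of low genes, with limma 3.58.1 in R 4.3.3 (variance trend, two-sided, Benjamini-Hochberg over 10496 genes, threshold 0.05). Residual and prior degrees of freedom were 2 and 2.54. The fit was tested on simulated data. The labels gave each library's group and number. Relative depths of 0.564, 0.306 and 0.631 of CCR7hiCD137lo replicate 1 (CCR7loCD137hi replicates 1 and 2 and CCR7hiCD137lo replicate 2) were estimated from ratios between low FPKM values. Absolute depth came from genes of 1 exon, assuming 200 nt fragments, and fragments per gene from the longest GENCODE transcript, so both are approximate and cover counting error only. The genes named were the 30 members, the 2 most expressed genes of each other list, any called, and the sort markers, and others are marked as picked after their values were seen. Some genes this rule names are not reported here. Members and lists were chosen with earlier results of these data known, so no list was tested. Alternatives were another pseudocount, other filters and scalings, no variance trend, each library left out and a replicate block.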

Additional observations from a re-analysis of the deposited data

How the results depend on the processing

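No member was called with a pseudocount of 0.1, without a filter on low values, with a minimum mean of 5 FPKM (28 members tested), with quantile normalization, with median ratio scaling, without a variance trend, with a replicate block, or without any 1 library. Over all genes, the 6 calls became 1 when unfiltered, 2 with quantile normalization, 2 without a variance trend and 42 with the replicate block, and 12 to 30 when 1 library was left out. The labels do not say whether the numbers pair libraries. Between same-numbered libraries the deviations had r = 0.214 over all genes tested and 0.814 over the members. With the replicate block the lowest limma adjusted p of a member was 0.111, for Gpt2, against 0.588 without it. The median log2 fold change of the members ran from −0.011 without CCR7loCD137hi replicate 1 to 0.113 without CCR7loCD137hi replicate 2, and was 0.044 with quantile normalization and 0.083 with median ratio scaling. The number fitted above 0, 20 of 30, was 21 with quantile normalization and 23 with median ratio scaling, and ran from 14 to 24 with 1 library left out. Such fits hold the replicate numbers unequally.

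Signs turned with median ratio scaling for Pdhx (0.0025), Idh2 (0.019) and Dlst (0.014), and with quantile normalization for Idh2 (0.011). With 1 library left out, 11 of 30 members kept their sign and 19 did not, and the log2 fold changes of those 19 had these ranges. Pdhb ran from −0.051 to 0.16, Dlat from −0.010 to 0.23, Dld from −0.018 to 0.17, Pdk2 from −0.21 to 0.63 and Cs from −0.016 to 0.12. Aco1 ran from −0.034 to 0.35, Idh2 from −0.23 to 0.21, Idh3a from −0.48 to 0.25, Idh3b from −0.10 to 0.15 and Dlst from −0.22 to 0.20. Sucla2 ran from −0.067 to 0.18, Suclg2 from −0.28 to 0.056, Sdhb from −0.053 to 0.23, Sdhc from −0.14 to 0.079 and Sdhd from −0.025 to 0.22. Fh1 ran from −0.22 to 0.046, Mdh1 from −0.00021 to 0.12, Mdh2 from −0.084 to 0.31 and Got2 from −0.039 to 0.13. The cause of these turns was not tested. Of the 11 that kept their sign, Gpt2 ran from 0.67 to 1.63, Pcx from 0.10 to 1.04, Pdha1 from −0.37 to −0.18, Pdhx from −0.037 to −0.0055, Pdk3 from 0.097 to 0.30 and Idh3g from 0.25 to 0.27. Ogdh ran from −0.17 to −0.035, Suclg1 from 0.042 to 0.37, Sdha from −0.19 to −0.12, Glud1 from 0.16 to 0.34 and Got1 from 0.16 to 0.40.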
